A study of Homo sapiens with 19 samples.

Results

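The genes of fibroblast growth factor (FGF) signalling were followed in H1 cells, a human embryonic stem cell line, through the loss of Polycomb repressive complex 2 (PRC2). The set holds 35 of the 33382 genes in the deposited expression files, found by gene symbol. It has 18 secreted ligands (FGF1 to FGF10, FGF16 to FGF23), 4 intracellular FGF homologous factors (FGF11 to FGF14), 5 receptors (FGFR1 to FGFR4 and FGFRL1) and 8 feedback inhibitors (the SPRY and SPRED genes and DUSP6). RNA was sequenced in 19 samples. Unmodified WT H1 cells and 5 knockout lines gave 2 samples each, the lines being EZH1-/- H1, EZH2-/- H1, the double knockout EZH2-/-/EZH1-/- H1, EED-/- H1 and SUZ12-/- H1. The knockouts were made with CRISPR/Cas9 and homologous targeting that removed a functional domain, and the 2 samples of a line carry different clone or passage names. H1-EED-/-/EED-OE cells lack endogenous EED and carry an EED transgene that is on in doxycycline (DOX). They were sampled 1 time in DOX and 1 time each on days 8, 12, 16, 20, 24 and 28 without it. The sample in DOX also carries day 28 in its title, so it may have been collected late, beside the last sample, and ratios to it may not be changes from a starting point. All cells grew in mTeSR1 on Matrigel, a medium that itself supplies FGF2.

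FGF ligands bind receptor tyrosine kinases together with heparan sulfate or, for the endocrine ligands, with Klotho proteins. The activated receptor recruits FRS2 and GRB2 and switches on the RAS and ERK cascade. ERK activity raises transcription of the Sprouty and Spred inhibitors and of DUSP6, an ERK phosphatase, which damp the signal. Human embryonic stem cells make FGF2 and need FGF signalling to stay pluripotent, while FGF4, FGF8 and FGF17 are made in the primitive streak of the embryo. PRC2 places the H3K27me3 mark, EZH1 and EZH2 are its alternative catalytic subunits, and EED and SUZ12 are core subunits. The double knockout EZH2-/-/EZH1-/- H1 and the lines without EED or SUZ12 are called the PRC2-null lines here.

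PRC2 in embryonic stem cells is known to bind mainly at CpG-rich promoters, so the sequence before the start of 4 members with different responses is shown. It was taken from RefSeq (GRCh38.p14), runs 5′ to 3′ on the gene's strand, and has CpG dinucleotides in capitals. Stretches that overlap an annotated exon were left out.

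FGF2 (lower in the PRC2-null lines; chr4:122826581-122826681, plus strand): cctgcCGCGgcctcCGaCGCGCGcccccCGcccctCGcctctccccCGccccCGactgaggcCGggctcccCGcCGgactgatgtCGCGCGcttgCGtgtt
FGF7 (higher in SUZ12-/- H1; chr15:49422992-49423236, plus strand): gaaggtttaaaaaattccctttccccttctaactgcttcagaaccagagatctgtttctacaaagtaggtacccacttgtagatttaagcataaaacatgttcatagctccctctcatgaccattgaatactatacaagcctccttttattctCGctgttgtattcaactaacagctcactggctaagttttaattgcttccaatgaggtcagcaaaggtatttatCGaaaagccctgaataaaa
FGFR3 (higher in SUZ12-/- H1; chr4:1793043-1793292, plus strand): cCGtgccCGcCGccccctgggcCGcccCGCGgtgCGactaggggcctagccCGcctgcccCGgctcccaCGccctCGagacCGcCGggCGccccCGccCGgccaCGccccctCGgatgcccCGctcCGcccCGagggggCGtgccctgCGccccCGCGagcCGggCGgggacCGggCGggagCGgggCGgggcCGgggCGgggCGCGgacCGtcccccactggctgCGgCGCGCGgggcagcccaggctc
SPRY2 (higher in EED-/- H1; chr13:80341127-80341376, minus strand): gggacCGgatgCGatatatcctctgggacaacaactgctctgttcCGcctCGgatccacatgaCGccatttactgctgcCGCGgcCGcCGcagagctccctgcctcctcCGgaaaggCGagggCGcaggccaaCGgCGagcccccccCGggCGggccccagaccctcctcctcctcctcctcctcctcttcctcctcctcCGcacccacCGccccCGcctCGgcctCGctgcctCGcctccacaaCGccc

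Over the full 250 bases before the RefSeq start, the FGF7 window held 2 CpG dinucleotides, and 85.3% of all 35114 promoters held at least as many. The FGF2 window held 33 and the FGFR3 window 40, counts that 8.14% and 2.16% of all promoters reached. The SPRY2 window held 23. Among these genes, picked for their different responses, FGF2 fell, while FGF7, FGFR3 and SPRY2 rose. FGF19, which also fell, had no matched window. PRC2 binding was not measured here, and the part of CpG content in the direction of change was not tested. RefSeq windows were matched for 27 of the 35 members, and the other 8 were FGF4, FGF8, FGF9, FGF16, FGF17, FGF19, FGF20 and FGFR1. The 27 windows held a median of 19 CpG dinucleotides, against 11 for all promoters, and the extremes were FGF21 with 0 and FGFR2 with 42. The ETS core CCGGAA, searched on both strands, was present in 1 of the 27 windows, that of SPRY2, and in 14.5% of all promoters.

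Expression is given in TPM, a measure of transcript abundance scaled by transcript length and by the library's total. Differences between lines were tested with limma on log2(TPM + 1), and a gene was called where its fold change reached 3 and its p, adjusted by the Benjamini-Hochberg method, did not exceed 0.01. Fold changes on this scale understate the change of low genes. Of the 35 members 32 were tested, since FGF3, FGF6 and FGF23 stayed at or under 0.85 TPM in all 12 samples of the 6 lines. The p-values measure only the spread between the 2 samples of each line, which may be partly technical.

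The samples differed in ways that touch the values below. The 9 pluripotency markers summed to between 6479 and 7723 TPM in the 6 samples with EED and SUZ12 intact and at least 1 of EZH1 and EZH2 (EZH2-/- H1, EZH1-/- H1 and WT H1) and to between 189.6 and 511.0 TPM in the 6 PRC2-null samples, so the PRC2-null samples no longer showed the labelled stem cell profile. Their 6 endoderm markers summed to between 155.2 and 384.9 TPM, against at most 2.75 TPM in the other 6, and the 7 mesoderm and mesenchyme markers to between 2177 and 13953 TPM, against at most 47.0 TPM. Trophoblast and amnion markers summed to between 219.7 and 433.5 TPM against at most 14.8 TPM, and smooth and cardiac muscle markers to between 1111 and 6012 TPM against at most 634.1 TPM. Of the 6 muscle markers, 4 were called higher in EED-/- H1 and 4 in EZH2-/-/EZH1-/- H1, but only 1 in SUZ12-/- H1. The sums of the endothelial markers (59.5 to 543.4 TPM against 47.1 to 147.2 TPM) and of the neural ectoderm markers (95.4 to 409.7 TPM against 95.5 to 198.9 TPM) overlapped, with 3 to 4 of 6 and 2 of 5 tested called higher in each PRC2-null line. In such bulk samples fewer cells of a type and less RNA per cell cannot be told apart. The 2 samples of EZH2-/-/EZH1-/- H1 cells differed most, with a median absolute log2 ratio of 0.46 between them against 0.089 to 0.36 in the other lines, and the signed log2 ratio of replicate 2 over replicate 1 in this line fell with transcript length (Spearman's rho = -0.47 across 8520 genes, which are not independent replicates). The same rho was -0.31 in EZH2-/- H1 and 0.23 in EZH1-/- H1, and lay between -0.12 and 0.032 in WT H1, EED-/- H1 and SUZ12-/- H1. The gene-level TPM of EED, SUZ12, EZH1 and EZH2 does not check the labels of lines that lack only a domain, and EED stood at 14.3 and 22.4 TPM in EED-/- H1 against 17.3 and 22.0 TPM in WT H1. It stood at 108.5 TPM with DOX and at 12.6 to 31.6 TPM after withdrawal.

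The members moved in different directions in the PRC2-null lines. FGF2 and FGF19 fell in all 3 PRC2-null lines. FGFRL1, SPRY2, SPRED2, FGF1 and FGF9 were called higher in EED-/- H1 cells, and FGF7, FGFR3, FGF10 and FGF17 in SUZ12-/- H1 cells. In EZH2-/-/EZH1-/- H1 cells FGFRL1 was called higher. In total 11 members were called in at least 1 PRC2-null line, and none of the 9 that rose was called in all 3. Some missed a call in another line by 1 threshold, such as FGF10 in EED-/- H1 (log2 fold change 1.84, limma, adjusted p = 0.013) and FGF9 in EZH2-/-/EZH1-/- H1 (1.52, 0.000803). Tests between the PRC2-null lines called only FGF7, FGFRL1 and SPRY2.

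As counts, 5 of 32 members were higher in EED-/- H1 than in WT H1, beside 16.2% of all 19100 genes tested, and 2 were lower, beside 6.09%. In SUZ12-/- H1 cells 4 were higher (14.5% of all genes) and 2 lower (5.21%), and in EZH2-/-/EZH1-/- H1 cells 1 was higher (11.6%) and 2 lower (5.66%). In the average of the 3 lines 4 were higher than in WT H1 (13.6%), namely FGF7, FGF10, FGFR3 and FGFRL1, and 2 lower (5.36%). Under median-ratio scaling FGF1, FGF9 and SPRED2 fell under the fold threshold in EED-/- H1, at 1.39, 1.57 and 1.38 on the log2 scale. The shares of members were close to or below those of all genes. In the average of the 3 lines the median log2 fold change of the members against WT H1 was 0.17, beside 0.28 for all genes tested. All 6 PRC2-null samples stood above all 6 other samples for 8 members (FGF1, FGF5, FGF7, FGF9, FGF10, FGF17, FGFRL1 and SPRY2), as they did for 24.2% of all genes, and below them for 3 (FGF2, FGF16 and FGF19), as for 13.3% of all genes.

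**Figure D1:**
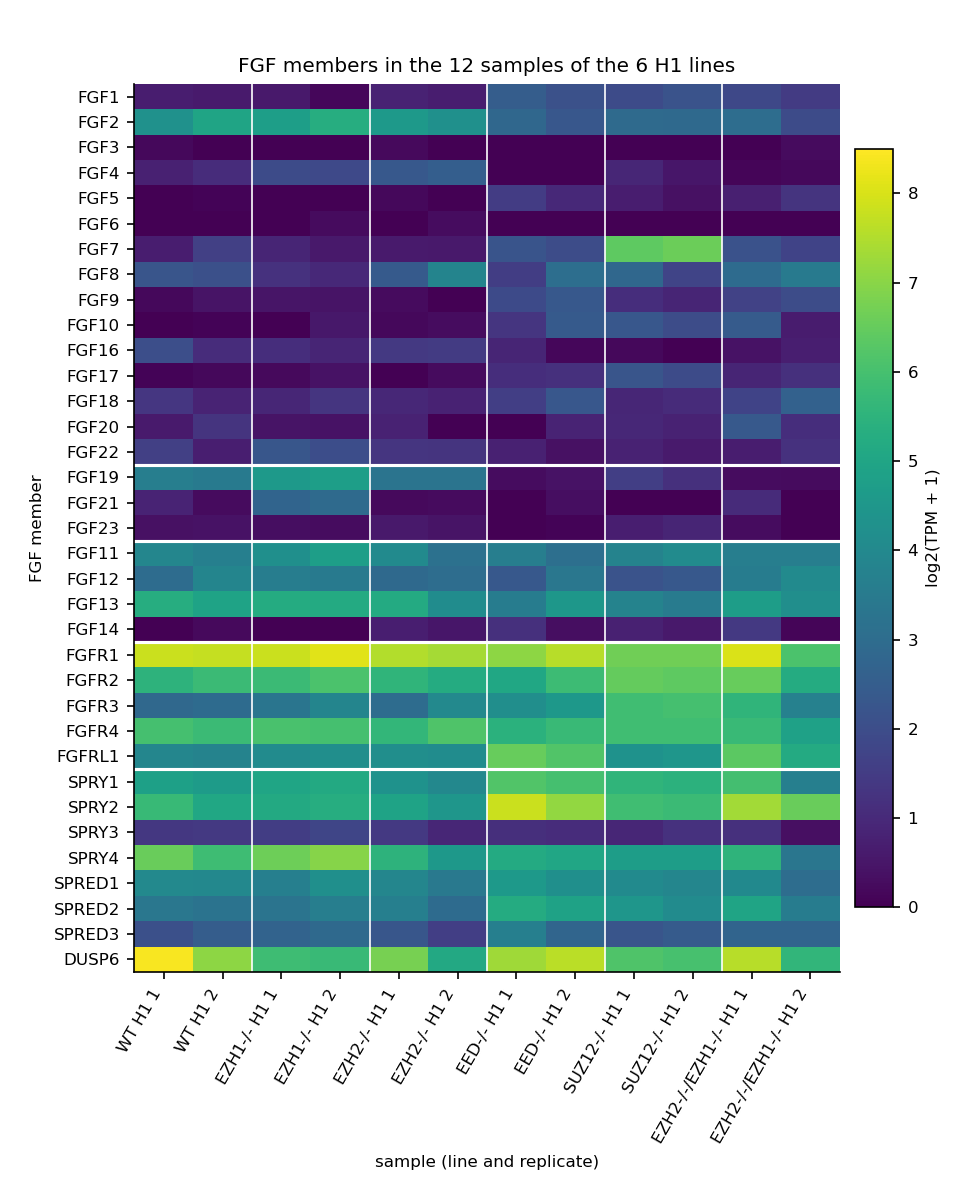
Colour map of log2(TPM + 1) for the 35 members (rows, grouped as paracrine ligands, endocrine ligands, intracellular factors, receptors and feedback inhibitors) in the 12 samples of the 6 lines (columns). FGFR1 and DUSP6 are among the brightest rows, and FGF7 is bright only in the 2 SUZ12-/- H1 samples, at 82.9 and 96.4 TPM.

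Among the ligands, FGF2, the factor that pluripotent cells secrete and that the medium supplies, led in WT H1. FGF2 stood at 18.7 and 30.5 TPM in WT H1, 26.1 and 37.9 in EZH1-/- H1, 23.3 and 18.2 in EZH2-/- H1, 6.21 and 3.94 in EED-/- H1, 7.15 and 2.88 in EZH2-/-/EZH1-/- H1 and 6.61 and 6.43 in SUZ12-/- H1 cells. Every PRC2-null sample lay below every other sample. The log2 fold change against WT H1 was -2.06 ± 0.39 (SE) in EED-/- H1, -2.15 ± 0.39 in EZH2-/-/EZH1-/- H1 and -1.73 ± 0.39 in SUZ12-/- H1 (limma, adjusted p = 0.00121, 0.00121 and 0.0039). Without WT H1 replicate 2 the adjusted p of the 3 comparisons rose to 0.0184, 0.0188 and 0.0486, and leaving out EED-/- H1 replicate 2 or either SUZ12-/- H1 sample also ended the call of that line (adjusted p = 0.0143 for EED-/- H1, 0.0249 and 0.027 for SUZ12-/- H1).

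FGF19, an endocrine ligand that acts through FGFR4 and beta-Klotho and is the bile acid signal of the adult gut, fell further. FGF19 stood at 11.4 and 10.2 TPM in WT H1, 23.2 and 25.9 in EZH1-/- H1, 8.65 and 8.73 in EZH2-/- H1, 0.23 and 0.33 in EED-/- H1, 0.22 and 0.19 in EZH2-/-/EZH1-/- H1 and 1.97 and 1.28 in SUZ12-/- H1 cells. The PRC2-null samples did not overlap the others, with SUZ12-/- H1 the highest of the PRC2-null lines. Its log2 fold change was -3.21 ± 0.25 in EED-/- H1, -3.29 ± 0.25 in EZH2-/-/EZH1-/- H1 and -2.18 ± 0.25 in SUZ12-/- H1 (limma, adjusted p = 3.25e-06, 4.17e-06 and 4.78e-05), and it was called in every alternative tried. The sum of the pluripotency markers fell with both ligands, and its part in their decline was not tested. FGF16 also lay lower in every PRC2-null sample, at 0 to 0.85 TPM against 0.86 to 3.15 TPM, and missed the fold threshold in all 3 lines.

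FGF7, the keratinocyte growth factor that mesenchymal cells make for neighbouring epithelium, gave the largest difference among the members. FGF7 stood at 82.9 and 96.4 TPM in SUZ12-/- H1 cells, at 0.59 and 2.05 TPM in WT H1, and at 0.48 to 0.82 TPM in EZH1-/- H1 and EZH2-/- H1. It reached 3.61 and 2.97 TPM in EED-/- H1 and 3.44 and 2.26 TPM in EZH2-/-/EZH1-/- H1 cells. Both SUZ12-/- H1 samples thus lay far above the other 10. In SUZ12-/- H1 the log2 fold change was 5.36 ± 0.33 against WT H1 (limma, adjusted p = 9.09e-07). The difference between PRC2-null lines was tested too: EED-/- H1 minus SUZ12-/- H1 was -4.40 ± 0.33 and SUZ12-/- H1 minus EZH2-/-/EZH1-/- H1 was 4.57 ± 0.33 on the log2 scale (adjusted p = 1.52e-05 and 1.32e-05). The SUZ12-/- H1 samples also had the highest sums of the 7 mesoderm and mesenchyme markers (13740 and 13953 TPM, against 2177 to 7014 TPM in the other 2 PRC2-null lines) and of the 6 yolk sac and liver secreted proteins (21103 and 21958 TPM, against 1374 to 3959 TPM). The part of these in the FGF7 level was not tested.

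The other ligands that rose stayed low. FGF10, a mesenchymal relative of FGF7, was at 4.0 and 2.96 TPM in SUZ12-/- H1, 1.51 and 4.35 in EED-/- H1, 4.44 and 0.56 in EZH2-/-/EZH1-/- H1, and 0 to 0.45 TPM in the other 6 samples. Its call in SUZ12-/- H1 (log2 fold change 2.12 ± 0.52, limma adjusted p = 0.00672) was lost when any 1 of the WT H1 or SUZ12-/- H1 samples was left out, with adjusted p between 0.0246 and 0.0468, and without a filter on low values (0.0137). FGF17, of the FGF8 subfamily, was at 3.78 and 2.85 TPM in SUZ12-/- H1, 0.82 to 1.27 TPM in the other PRC2-null samples and 0 to 0.33 TPM elsewhere, and rose in SUZ12-/- H1 by 1.97 ± 0.24 on the log2 scale (adjusted p = 7.76e-05).

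FGF1, which binds all FGF receptors, was at 4.71 and 3.30 TPM in EED-/- H1, 2.58 and 1.81 in EZH2-/-/EZH1-/- H1, 2.80 and 3.51 in SUZ12-/- H1 and 0.11 to 0.74 TPM in the other 6 samples. It rose by 1.66 ± 0.27 (log2) in EED-/- H1 (limma, adjusted p = 0.000515), and fell under the fold threshold without EED-/- H1 replicate 1 (1.46). FGF9, known from testis and lung development, was at 2.73 and 4.05 TPM in EED-/- H1, 2.23 and 2.94 in EZH2-/-/EZH1-/- H1, 1.14 and 0.84 in SUZ12-/- H1 and 0 to 0.40 TPM elsewhere, and rose by 1.81 ± 0.26 in EED-/- H1 (adjusted p = 0.000196). In all of these the 6 PRC2-null samples lay above the other 6.

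FGF4, FGF5, FGF8, FGF18, FGF20, FGF21 and FGF22 were not called in any PRC2-null line. FGF4, a direct target of pluripotency factors in mouse embryonic stem cells, was at 0 in both EED-/- H1 samples and at 0.71 and 1.09 TPM in WT H1. It was at 0.08 and 0.14 TPM in EZH2-/-/EZH1-/- H1 and at 0.88 and 0.44 TPM in SUZ12-/- H1. In EZH1-/- H1 it was at 2.83 and 2.64 TPM and in EZH2-/- H1 at 4.12 and 4.84 TPM, above WT H1. FGF8 ranged from 0.96 to 13.4 TPM over the 12 samples with no separation of the groups. FGF21 stood at 5.70 and 6.69 TPM in EZH1-/- H1 cells and at most 1.07 TPM in the other 10 samples, with a log2 fold change of 2.31 ± 0.34 against WT H1 that missed the threshold (limma, adjusted p = 0.0182).

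As a result of these shifts the leading ligand differed by line. FGF2 was the highest of the 18 secreted ligands in all 6 samples outside the PRC2-null lines, with 35.4% to 57.9% of their summed TPM. In SUZ12-/- H1 cells FGF7 led with 72.6% and 80.0% of the sum. In EED-/- H1 and EZH2-/-/EZH1-/- H1 cells FGF2 led in 1 sample and FGF8 in the other, with 19.2% to 32.2% of the sum. The summed ligand TPM was 44.4 and 52.7 in WT H1, 27.4 and 34.0 in EED-/- H1, 37.2 and 32.4 in EZH2-/-/EZH1-/- H1 and 114.2 and 120.5 in SUZ12-/- H1 cells. These sums and shares were not tested.

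**Figure D2:**
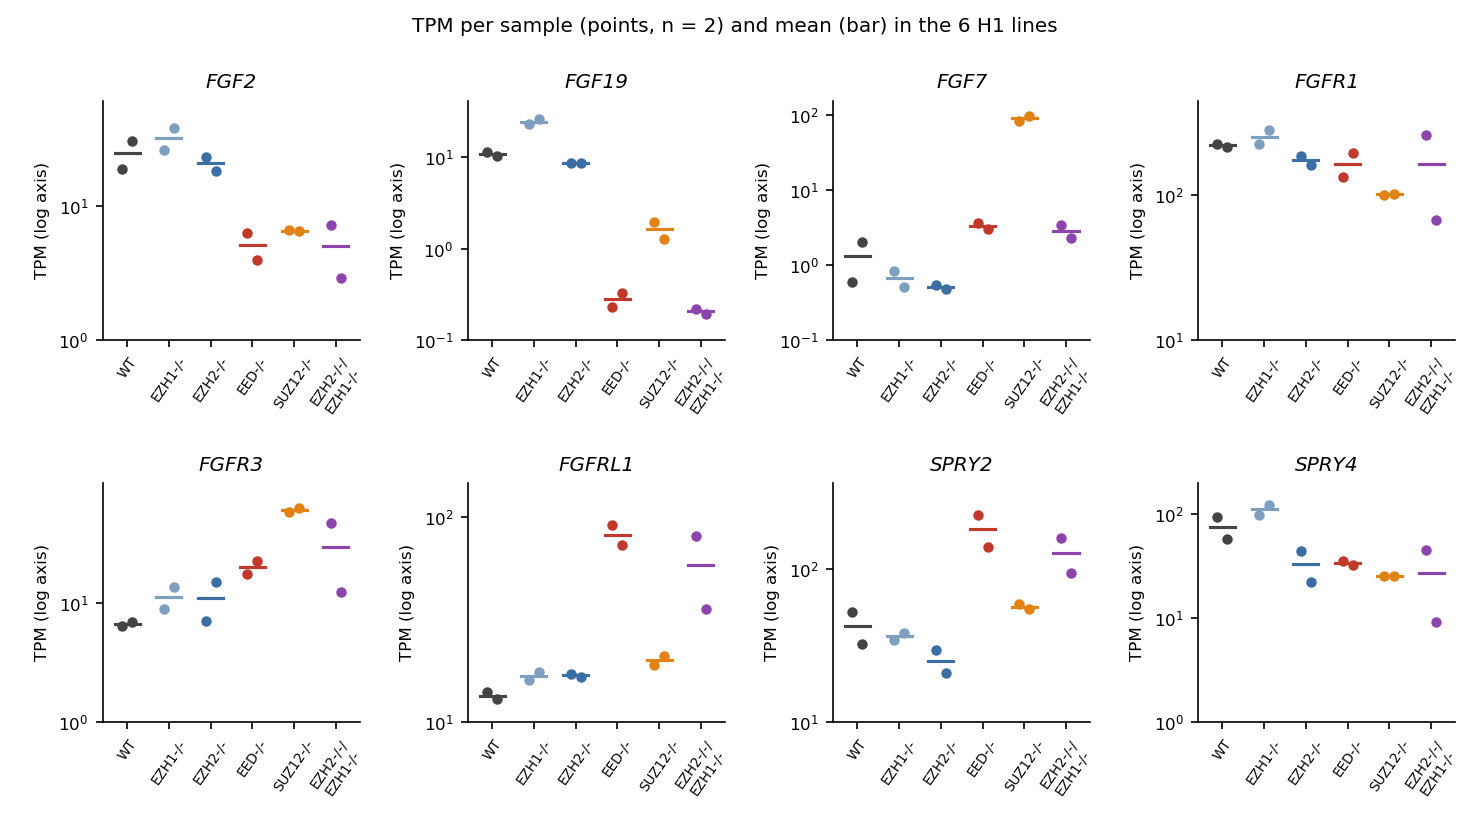
TPM on log axes of 2 ligands that fell, 1 that rose, 3 receptors and 2 feedback inhibitors in each of the 2 samples of the 6 lines (points) with their mean (bars). FGF2 and FGF19 are lowest in the PRC2-null lines, FGF7 and FGFR3 are highest in SUZ12-/- H1, and FGFRL1 and SPRY2 are highest in EED-/- H1 cells.

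The intracellular FGF homologous factors, which are not secreted and bind voltage-gated sodium channels, gave no call in any PRC2-null line. Their median log2 fold change in the average of these lines against WT H1 was -0.29. FGF13 was at 38.4 and 29.3 TPM in WT H1, 36.7 and 35.6 in EZH1-/- H1, 35.3 and 16.7 in EZH2-/- H1, 11 and 21.5 in EED-/- H1, 25.8 and 17.5 in EZH2-/-/EZH1-/- H1 and 12.8 and 10.6 in SUZ12-/- H1 cells. The ranges overlapped, and in SUZ12-/- H1 the log2 fold change was -1.45 ± 0.38 (limma, adjusted p = 0.00966), under the fold threshold. FGF11 stood at 13.9 and 11.7 TPM in WT H1, 17.8 and 26.4 in EZH1-/- H1, 15.8 and 7.92 in EZH2-/- H1, 11.5 and 7.69 in EED-/- H1, 11.4 and 11.3 in EZH2-/-/EZH1-/- H1 and 13.0 and 16.0 in SUZ12-/- H1 cells. FGF12 stood at 7.07 and 13.6 TPM in WT H1, 11.1 and 10.4 in EZH1-/- H1, 6.57 and 7.17 in EZH2-/- H1, 4.08 and 9.24 in EED-/- H1, 10.8 and 15.9 in EZH2-/-/EZH1-/- H1 and 3.55 and 4.12 in SUZ12-/- H1 cells. The PRC2-null samples overlapped the others for both genes, and FGF14 stayed at or under 1.67 TPM.

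Among the receptor kinases FGFR1, the main receptor of WT H1, was not called. FGFR1 stood at 223.0 and 214.1 TPM in WT H1, 224.5 and 276.2 in EZH1-/- H1, 183.8 and 160.9 in EZH2-/- H1, 132.5 and 193.3 in EED-/- H1, 256.2 and 66.8 in EZH2-/-/EZH1-/- H1 and 99.4 and 100.9 in SUZ12-/- H1 cells. The 2 samples of EZH2-/-/EZH1-/- H1 gave the highest and the lowest value of the PRC2-null samples. In SUZ12-/- H1 its log2 fold change was -1.12 ± 0.46 (limma, adjusted p = 0.0676).

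FGFR3, a receptor that restrains bone growth, rose in SUZ12-/- H1 cells. FGFR3 stood at 6.37 and 6.85 TPM in WT H1, 8.85 and 13.5 in EZH1-/- H1, 7.01 and 15.0 in EZH2-/- H1, 17.4 and 22.4 in EED-/- H1, 46.7 and 12.3 in EZH2-/-/EZH1-/- H1 and 57.9 and 62.3 in SUZ12-/- H1 cells. The 2 SUZ12-/- H1 samples were the highest, and EZH2-/-/EZH1-/- H1 replicate 2 lay within the range of the lines outside the PRC2-null group. Against WT H1 its log2 fold change was 3.01 ± 0.51 in SUZ12-/- H1 (limma, adjusted p = 0.000722), 1.73 ± 0.51 in EZH2-/-/EZH1-/- H1 (0.0193) and 1.45 ± 0.51 in EED-/- H1 (0.0361). Against the average of the lines it was 2.06 ± 0.42 (adjusted p = 0.00176), a call lost without WT H1 replicate 1 or 2 (adjusted p = 0.0232 and 0.0194). The differences in FGFR3 between PRC2-null lines were not called.

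FGFR2, the main receptor of FGF7 and FGF10 in its epithelial splice form, ranged from 32.7 to 90.3 TPM over the 12 samples. It stood at 44.2 and 53.9 TPM in WT H1, 55 and 67.3 in EZH1-/- H1, 45.9 and 36.6 in EZH2-/- H1, 32.7 and 55.9 in EED-/- H1, 90.3 and 36.4 in EZH2-/-/EZH1-/- H1 and 89.7 and 82.1 in SUZ12-/- H1 cells. Its log2 fold change in SUZ12-/- H1 was 0.80 ± 0.38 (limma, adjusted p = 0.103), and gene-level TPM does not separate its splice forms. FGFR4, the receptor of FGF19, stood at 63.0 and 55.1 TPM in WT H1, 66.1 and 63.3 in EZH1-/- H1, 49.0 and 70.5 in EZH2-/- H1, 41.8 and 52.7 in EED-/- H1, 52.8 and 28.5 in EZH2-/-/EZH1-/- H1 and 57.8 and 59.0 in SUZ12-/- H1 cells, with overlapping groups.

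FGFRL1 binds FGF ligands and lacks the intracellular kinase. FGFRL1 stood at 14.1 and 13.0 TPM in WT H1, 16.1 and 17.5 in EZH1-/- H1, 17.3 and 16.7 in EZH2-/- H1, 91.2 and 72.9 in EED-/- H1, 81.1 and 35.9 in EZH2-/-/EZH1-/- H1 and 19.1 and 21.1 in SUZ12-/- H1 cells. Every PRC2-null sample lay above every other sample, and the SUZ12-/- H1 samples only narrowly. The log2 fold change was 2.51 ± 0.32 in EED-/- H1 and 1.92 ± 0.32 in EZH2-/-/EZH1-/- H1 (limma, adjusted p = 8.67e-05 and 0.000685), and 0.54 ± 0.32 in SUZ12-/- H1 (0.189). Without EZH2-/-/EZH1-/- H1 replicate 1 the value of that line was 1.35, under the fold threshold. EED-/- H1 exceeded SUZ12-/- H1 by 1.97 (log2), a call lost when EED-/- H1 replicate 1 or either SUZ12-/- H1 sample was left out (adjusted p = 0.0155 to 0.0218).

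The summed TPM of FGFR1 to FGFR4 was 336.6 and 329.9 in WT H1 and 304.8 and 304.2 in SUZ12-/- H1 cells, while the share of FGFR1 in it was 66.3% and 64.9% in WT H1 and 32.6% and 33.2% in SUZ12-/- H1. The share of FGFR3 was 1.89% and 2.08% in WT H1 and 19% and 20.5% in SUZ12-/- H1. In EED-/- H1 cells FGFR1 held 59.0% and 59.6%. The sum was 446.1 and 143.9 TPM in the 2 samples of EZH2-/-/EZH1-/- H1 cells, the widest gap within a line.

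**Figure D3:**
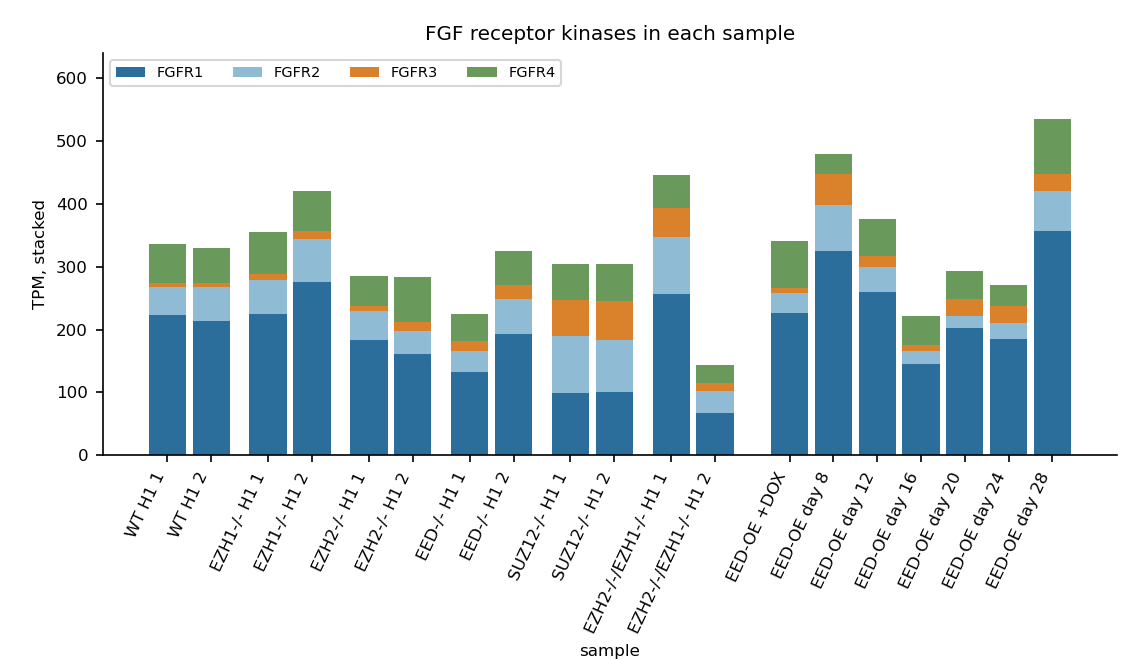
Stacked TPM of the 4 receptor kinases in the 12 samples of the 6 lines and in the 7 samples of H1-EED-/-/EED-OE cells (written EED-OE on the axis). The sums run from 143.9 to 534.6 TPM, and FGFR1 takes 32.6% and 33.2% of the bar in SUZ12-/- H1 cells against 66.3% and 64.9% in WT H1.

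Among the feedback inhibitors SPRY2, a Sprouty protein that blocks receptor signalling to RAS, rose in EED-/- H1 cells. SPRY2 stood at 52.5 and 32.5 TPM in WT H1, 34.5 and 38.0 in EZH1-/- H1, 29.6 and 20.9 in EZH2-/- H1, 224.6 and 139.1 in EED-/- H1, 158.4 and 93.6 in EZH2-/-/EZH1-/- H1 and 58.9 and 54.3 in SUZ12-/- H1 cells. All PRC2-null samples lay above the others, SUZ12-/- H1 by little. The log2 fold change was 2.07 ± 0.33 in EED-/- H1 (limma, adjusted p = 0.000373), 1.54 ± 0.33 in EZH2-/-/EZH1-/- H1 (0.00314, just under the fold threshold) and 0.44 ± 0.33 in SUZ12-/- H1 (0.291). EED-/- H1 exceeded SUZ12-/- H1 by 1.63, a call lost in 6 of 10 alternatives. These were the fits without EED-/- H1 replicate 1 or either SUZ12-/- H1 sample (adjusted p = 0.0365 to 0.066), without a filter (0.0115), with only the lines compared (0.017) and with median-ratio scaling (1.42 on the log2 scale, under the fold threshold). Muscle markers differed between the same lines, with 3 of 6 called higher in EED-/- H1 and sums of 4308 and 4965 TPM against 1111 and 1117 TPM. The endothelial markers (2 of 6 higher, 349.2 and 543.4 TPM against 163.2 and 175.6 TPM) and the neural ectoderm markers (2 of 5 tested higher, 344.1 and 409.7 TPM against 95.4 and 96.1 TPM) did as well. The part of these markers in the differences of SPRY2 and FGFRL1 was not tested.

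SPRED2, a Spred protein that suppresses the step from RAS to ERK, stood at 9.25 and 8.36 TPM in WT H1, 8.61 and 11.5 in EZH1-/- H1, 11.8 and 6.91 in EZH2-/- H1, 36.1 and 28.5 in EED-/- H1, 30.1 and 10.9 in EZH2-/-/EZH1-/- H1 and 21.0 and 16.2 in SUZ12-/- H1 cells. It rose by 1.76 ± 0.41 (log2) in EED-/- H1 (limma, adjusted p = 0.00477), and leaving out any 1 of the 4 samples compared ended the call (adjusted p = 0.0173 to 0.0431). SPRY1 stood at 27.8 and 24.6 TPM in WT H1, 30.9 and 34.5 in EZH1-/- H1, 19.3 and 14.8 in EZH2-/- H1, 72.8 and 62.7 in EED-/- H1, 61.3 and 11.7 in EZH2-/-/EZH1-/- H1 and 45.8 and 43.2 in SUZ12-/- H1 cells, and was not called.

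SPRY4 gave lower values in the PRC2-null lines. SPRY4 stood at 93.2 and 57.7 TPM in WT H1, 97.9 and 123.0 in EZH1-/- H1, 44.5 and 22.2 in EZH2-/- H1, 35.6 and 32.0 in EED-/- H1, 45.6 and 9.22 in EZH2-/-/EZH1-/- H1 and 25.6 and 25.6 in SUZ12-/- H1 cells. The EZH2-/- H1 samples lay within the PRC2-null range. Against the average of the lines the log2 fold change was -1.45 ± 0.46 (limma, adjusted p = 0.0206), which was not called. SPRED1, another Spred protein, stood at 15.1 and 14.5 TPM in WT H1, 11.8 and 17.7 in EZH1-/- H1, 14.1 and 9.73 in EZH2-/- H1, 23.1 and 17.8 in EED-/- H1, 15.4 and 7.21 in EZH2-/-/EZH1-/- H1 and 15.9 and 13.8 in SUZ12-/- H1 cells. SPRED3 ranged from 1.99 to 11.7 TPM and SPRY3 from 0.28 to 2.41 TPM over the 12 samples, and for these 3 genes the PRC2-null samples overlapped the others.

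DUSP6, the ERK phosphatase, varied widely within WT H1, EZH2-/- H1 and EZH2-/-/EZH1-/- H1. DUSP6 stood at 342.1 and 132.2 TPM in WT H1, 57.3 and 53.7 in EZH1-/- H1, 106.9 and 34.0 in EZH2-/- H1, 156.3 and 194.7 in EED-/- H1, 193.4 and 47.8 in EZH2-/-/EZH1-/- H1 and 71.3 and 63.4 in SUZ12-/- H1 cells. No difference from WT H1 was called. The log2 fold change was -1.92 ± 0.65 in EZH1-/- H1, -1.80 ± 0.65 in EZH2-/- H1 and -1.65 ± 0.65 in SUZ12-/- H1. These passed the fold threshold and missed that of the adjusted p (limma, 0.189, 0.678 and 0.0585). In EZH2-/-/EZH1-/- H1 it was -1.13 ± 0.65 and in EED-/- H1 -0.29 ± 0.65 (limma, adjusted p = 0.182 and 0.738).

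**Figure D4:**
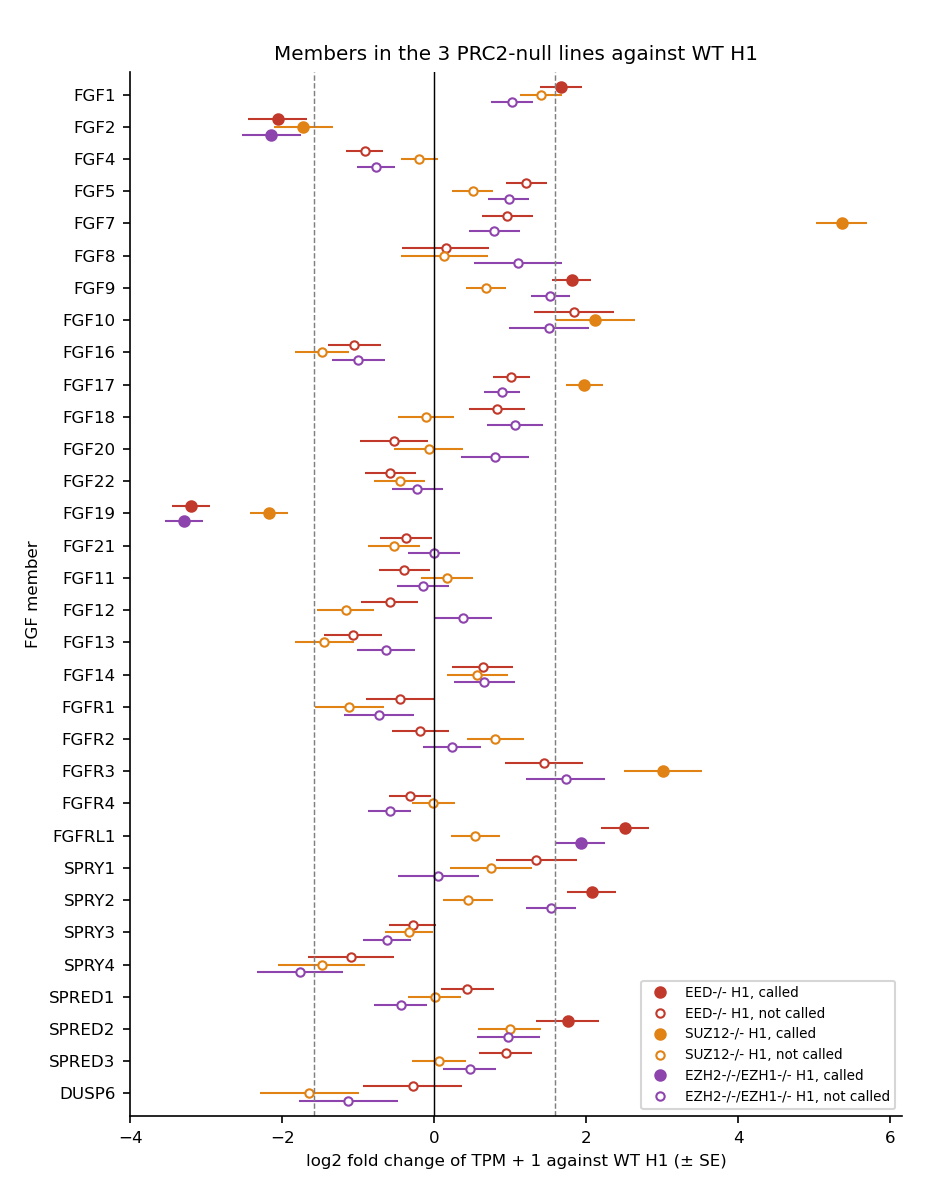
Log2 fold change of TPM + 1 against WT H1 (± SE) of the 32 tested members in the 3 PRC2-null lines. Filled points passed the adjusted p of 0.01 and the 3-fold threshold (dashed lines at ± 1.58), and the FGF7 point of SUZ12-/- H1 at 5.36 is the farthest from 0.

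The 2 samples of EZH2-/-/EZH1-/- H1 were the least alike of any line, and with 2 samples it cannot be told which of them is the unusual one. Leaving out replicate 2 raised the count of members higher in that line from 1 to 5 (FGF10, FGFR3, FGFRL1, SPRED2 and SPRY2), beside 13.9% of all genes. Both lower members, FGF2 and FGF19, remained called. Leaving out replicate 1 instead gave a different set of members, with FGFRL1 at 1.35 on the log2 scale, under the fold threshold. A fit of only the lines compared ended the calls of FGF2 and FGFRL1 in this line (adjusted p = 0.0378 for each) and that of FGF7 between it and SUZ12-/- H1 (0.0261). Between EED-/- H1 and EZH2-/-/EZH1-/- H1 cells no member was called by limma (0.089% of all genes were). An unadjusted p under 0.05 was found for 5 of 32 members and for 3831 of all 19100 genes. Between EED-/- H1 and SUZ12-/- H1 3 members differed, FGF7, FGFRL1 and SPRY2 (6.12% of all genes), and between SUZ12-/- H1 and EZH2-/-/EZH1-/- H1 1 did, FGF7 (4.46%). In EZH1-/- H1 no member was called higher (0.0576% of all genes) or lower (0.0419%) than in WT H1, and 5 had an unadjusted p under 0.05, as had 3058 of all genes. In EZH2-/- H1 none was called, as for all genes (0% in each direction), and 2 had an unadjusted p under 0.05, as had 1110 of all genes.

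The time course followed the members after DOX withdrawal, with 1 sample at each point and hence no test. A member is counted where the ratio of TPM + 1 to the sample with DOX reached 3, and 32 members with a TPM of at least 1 in any of the 7 samples were considered. At day 8, 1 member was higher, FGFR3 (2.77% of 19011 genes), and 3 were lower, FGF19, SPRY4 and DUSP6 (0.589%). At day 12, 2 were higher, FGF4 and FGF8 (2.84%), and 0 lower (0.4%). At day 16, 6 were higher, FGF1, FGF4, FGF8, FGF10, FGF17 and FGF18 (3.81%), and DUSP6 was lower (0.894%). At day 20, 8 were higher (9.07%), with FGFR3, SPRED2, SPRY1 and SPRY2 joining FGF4, FGF8, FGF10 and FGF17, and 0 lower (2.69%). At day 24, 5 were higher (12.9%), and FGF2 and FGF19 were lower (4.67%). At day 28, 7 were higher, FGF1, FGF8, FGF10, FGFR3, FGFRL1, SPRED2 and SPRY2 (17.9%), and FGF2 and FGF19 were again lower (5.61%).

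FGF8, FGF4 and FGF17 gave a pulse centred on day 16. FGF8, which drives cell movement in the mouse primitive streak, stood at 2.63 TPM with DOX and at 7.26, 45.9, 159.6, 22.2, 7.07 and 28.8 TPM on days 8, 12, 16, 20, 24 and 28. FGF4 stood at 0.21 TPM with DOX and at 1.86, 2.72, 51.9, 3.08, 0 and 0.11 TPM on the same days. FGF17 stood at 0.45 TPM with DOX and at 1.95, 1.53, 21.4, 15.2, 1.91 and 2.67 TPM. On the TPM + 1 scale the day 16 value was 44.2 times the DOX value for FGF8, 43.7 times for FGF4 and 15.4 times for FGF17.

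In the same samples 2 genes of the primitive streak, EOMES and T (brachyury), were picked from the endoderm and the mesoderm and mesenchyme lists. EOMES stood at 0.08 TPM with DOX, 14.5 at day 12, 115.3 at day 16, 96.6 at day 20, 16.0 at day 24 and 43.4 at day 28. T stood at 0, 17.5, 124.6, 186.0, 0.74 and 13.1 TPM, highest at day 20. The full lists summed to 201.9 and 152.2 TPM at day 16, and to 813.3 and 3601 TPM at day 28. POU5F1 was still at 3356 TPM on day 16 and 1580 TPM on day 20, before it stood at 46.2 TPM on day 24. Across the 3 PRC2-null knockout lines FGF4 reached at most 0.88 TPM, FGF17 at most 3.78 TPM and FGF8 at most 10.4 TPM. The part of these cell type markers in the ligand levels was not tested.

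FGF2 and FGF19 had their lowest values at day 28. FGF2 stood at 16.1 TPM with DOX, at 44.4 TPM at day 8 and then at 29.0, 22.7, 7.77, 4.0 and 1.74 TPM on days 12 to 28. FGF19 stood at 13.9 TPM with DOX, 3.39 at day 8, 12.8 at day 12, 20.1 at day 16, 5.21 at day 20, 2.05 at day 24 and 0.28 at day 28, so that its values at days 12 and 16 lay above the low value of day 8. At day 28 FGF2 lay below both EED-/- H1 samples (6.21 and 3.94 TPM), and FGF19 lay between them (0.23 and 0.33 TPM). FGF10 stood at 0 TPM with DOX and day 8, and reached 9.5 TPM at day 20 and 5.55 TPM at day 28. FGF7 stayed between 2.80 and 9.34 TPM, far from its level in SUZ12-/- H1.

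FGFRL1 stood at 23.3 TPM with DOX, 10.6 at day 8, 22.1 and 26.0 at days 12 and 16, 61.9 and 59.5 at days 20 and 24 and 109.0 at day 28. SPRY2 stood at 29.8 TPM with DOX, 24.7, 46.1 and 69.1 at days 8, 12 and 16, and 152.9, 127.0 and 102.3 at days 20, 24 and 28. At day 28 FGFRL1 lay above both EED-/- H1 samples (91.2 and 72.9 TPM) and SPRY2 below both (224.6 and 139.1 TPM). SPRED2 stood at 8.33 TPM with DOX and 43.6 TPM at its highest, day 24, and FGFR3 at 7.30 TPM with DOX, 49.3 at day 8, 9.19 at day 16 and 27.5 at day 28.

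The day 8 sample had the lowest value of the time course for SPRY1, SPRY2, SPRY4 and DUSP6. SPRY1 and SPRY2, at 14.8 and 24.7 TPM, lay near their values with DOX, 16.3 and 29.8 TPM. SPRY3, SPRED1 and SPRED2 were higher at day 8 than with DOX (1.41, 9.66 and 9.74 against 1.05, 8.05 and 8.33 TPM). SPRED3 was lower (4.95 against 6.66 TPM). DUSP6 stood at 185.9 TPM with DOX, 26.3 at day 8, 114.0 at day 12, 43.7 at day 16, 253.0 at day 20, 460.2 at day 24 and 312.0 at day 28. SPRY4 stood at 60.3 TPM with DOX, 12.5 at day 8, 42.7 and 34.1 at days 12 and 16, 150.9 and 134.3 at days 20 and 24 and 34.5 at day 28. ETV4 and ETV5, ERK-responsive ETS factors named after their values were seen, were likewise lowest at day 8, with 40.9 and 8.77 TPM against 166.2 and 20.1 TPM with DOX. Other targets and feedback genes went the other way. EGR1, FOS and PHLDA1 stood at 117.5, 171.6 and 22.1 TPM at day 8, against 30.5, 113.1 and 11.4 TPM with DOX. Also at day 8 the 6 neural ectoderm markers summed to 311.1 TPM, against 79.8 TPM with DOX and 170.9 to 346.1 TPM on later days. The pluripotency markers summed to 5769 TPM against 5422 TPM with DOX. The part of these markers in the day 8 values of the members was not tested. SPRY1, SPRY2 and SPRY4 were highest on days 20 and 24. Of the 32 members 8 had their highest value at day 20, 7 at day 16, 7 at day 28 and 1 with DOX.

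**Figure D5:**
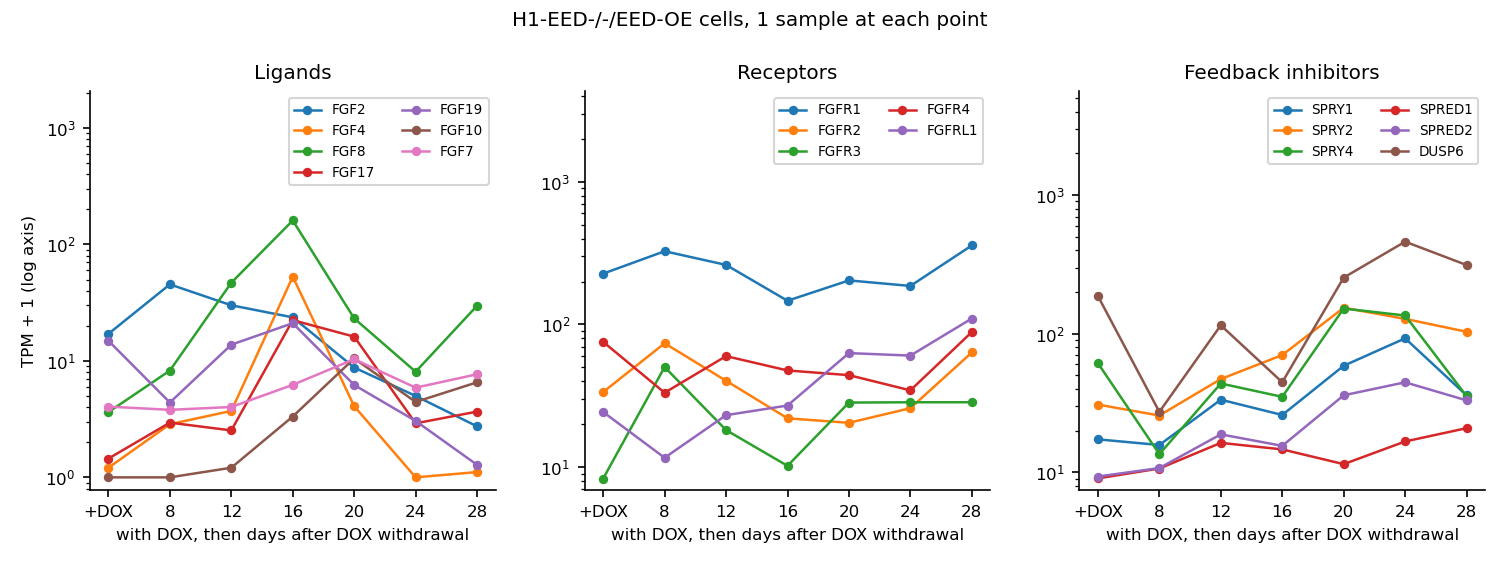
TPM + 1 on log axes of ligands, receptors and feedback inhibitors in H1-EED-/-/EED-OE cells with DOX and at 6 times after its withdrawal, 1 sample at each point, with days spaced evenly after the DOX sample. FGF8, FGF4 and FGF17 peak at day 16 at 159.6, 51.9 and 21.4 TPM, while FGF2 falls from 44.4 TPM at day 8 to 1.74 TPM at day 28.

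Beyond the members, 73 further genes of the pathway were examined, all of them tested. In the average of the PRC2-null lines 20 were higher and 3 lower than in WT H1, beside 13.6% and 5.36% of all genes. The median log2 fold change of the 73 genes was 0.64, beside 0.28. Of the 25 adaptors and kinases 2 were higher and 0 lower, so the intracellular cascade gave few calls. Of the 25 co-receptors and extracellular modulators 10 were higher and 1 lower, with a median of 1.42, and of the 23 targets and other feedback genes 8 were higher and 2 lower. All shares are given without a test of the list.

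Among the extracellular genes, FLRT3 and FLRT2, membrane proteins that bind FGF receptors, rose by 6.09 ± 0.32 and 4.99 ± 0.19 on the log2 scale (limma, adjusted p = 1.72e-07 and 3.32e-08), FLRT3 from 0.27 and 0.25 TPM in WT H1 to between 42.4 and 119.8 TPM in the PRC2-null samples. SULF2, which trims 6-O-sulfate from heparan sulfate, rose by 3.64 ± 0.21 (adjusted p = 2.94e-07), and HS6ST2, which adds it, by 3.32 ± 0.24 (1.26e-06). GPC3, a glypican abundant in fetal liver, rose by 3.12 ± 0.32 (1.59e-05). FGFBP3, of a family of secreted FGF-binding carriers, fell by 4.91 ± 0.25 (1.5e-07), from 129.6 and 164.8 TPM in WT H1 to between 2.67 and 6.35 TPM in the PRC2-null samples.

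Downstream genes moved both ways. The MAP kinase phosphatases DUSP1 and DUSP10 rose by 4.54 ± 0.42 and 4.21 ± 0.21 (log2, limma, adjusted p = 6.97e-06 and 1.51e-07), and the immediate early genes FOS and EGR1 by 3.89 ± 0.50 and 3.28 ± 0.56 (8.19e-05 and 0.000546). The call of EGR1 was lost without WT H1 replicate 2 (adjusted p = 0.0163). The other lower genes, named after their values were seen, were ETV4, with a log2 fold change of -1.79 ± 0.19 (adjusted p = 2.1e-05), and ETV1, with -2.20 ± 0.48 (0.00276), a call lost without either WT H1 sample.

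The Klotho co-receptors, also named after their values were seen, were higher in SUZ12-/- H1 cells. KLB, the partner of FGF19, stood at 7.01 and 7.73 TPM in SUZ12-/- H1, 0.43 and 1.17 in EED-/- H1, 3.55 and 0.40 in EZH2-/-/EZH1-/- H1 and at most 0.24 TPM in the other 6 samples, with a log2 fold change of 2.85 ± 0.45 in SUZ12-/- H1 (limma, adjusted p = 0.000413). KL, the partner of FGF23, stood at 4.62 and 4.90 TPM in SUZ12-/- H1 and at most 1.04 TPM elsewhere, with 2.49 ± 0.27 (adjusted p = 3.61e-05). The summed yolk sac and liver proteins were highest in the same samples, and their part was not tested.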

How the data were processed

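RNA-seq libraries (TruSeq) of 19 H1 samples were quantified by the authors with RSEM after Bowtie2 alignment to GRCh38 mRNA sequences. The deposited values were TPM for 33382 genes per sample and summed to between 999999.2 and 1000001 in each, so read depth is unknown, no counting interval is given, and precision rests on the 2 samples of each line. Each sample had 19117 to 23012 genes above 0. The study describes a count test, and since the deposited unit is TPM, limma 3.58.1 (R 4.3.3) was used with its thresholds (adjusted p of at most 0.01, fold change of at least 3). The fit used log2(TPM + 1) of 12 samples with 1 mean per line and 6 residual degrees of freedom, with trend and robust options, on the 19100 genes that reached a TPM of 1 in 2 or more samples. On simulated data 138 of 200 changed genes were recovered, with 0 false calls. The simulation used independent normal noise and changed only these 200 of 19100 genes, in 1 line and by more than the fold threshold. It held no shift with transcript length and far fewer changed genes than the real lines, so its error rates may not carry over. The time course has 1 sample per point, so ratios of TPM + 1 were given without a test. Files were joined by Ensembl ID, since 33 gene names differed between them. Values in every sample were given for members called in a PRC2-null line or with a mean TPM of at least 10 in a line, and of the other pathway genes the 10 with the largest change among those called were named. The members and lists were chosen with earlier results of these data known. Groups came from the sample labels. Alternatives covered the pseudocount, the filter, the scaling, the thresholds, the samples fitted and each sample left out.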

Additional observations from a re-analysis of the deposited data

Results flagged for a closer look

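Members whose change differed between PRC2-null lines by a test of the difference itself were singled out. The log2 difference of EED-/- H1 from SUZ12-/- H1 cells was -4.4 for FGF7, 1.97 for FGFRL1 and 1.63 for SPRY2, and that of SUZ12-/- H1 from EZH2-/-/EZH1-/- H1 cells was 4.57 for FGF7 (limma, adjusted p = 1.52e-05, 0.00166, 0.00547 and 1.32e-05). The SPRY2 difference lost its call in 6 of 10 alternatives. FGF7 was higher in both SUZ12-/- H1 samples than in the other 10 samples of the lines. With 2 samples per line, a single sample far from the rest could not be looked for.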

How the results depend on the processing

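No paired analysis was possible because the labels give clone or passage names rather than replicate numbers shared between lines. Of 26 member calls, 11 passed under every alternative, 15 were lost under at least 1 and 0 reversed, and all calls of FGF19 and FGF17 were among those kept. Counts that moved by over 1.5 times were as follows, given as higher and lower where both moved. At an adjusted p of at most 0.05 with no fold threshold they were 11 and 5 members in EED-/- H1, 9 and 5 in EZH2-/-/EZH1-/- H1, 5 lower in SUZ12-/- H1, 1 higher in EZH1-/- H1 (FGF21), 10 and 6 against the average, 6 between EED-/- H1 and SUZ12-/- H1, 6 between SUZ12-/- H1 and EZH2-/-/EZH1-/- H1, and 44 other pathway genes, where 23 were called as reported. Among all 19100 genes, 6518 were then higher and 3256 lower in EED-/- H1, 5141 and 3318 in EZH2-/-/EZH1-/- H1 and 3325 lower in SUZ12-/- H1. In EZH1-/- H1 143 were higher, and 6956 and 3848 against the average. Between EED-/- H1 and SUZ12-/- H1 3736 differed, and between SUZ12-/- H1 and EZH2-/-/EZH1-/- H1 2728. Where a count that follows stands without that of all genes, it is no result about the members. With a pseudocount of 0.1 they were 8 higher in EED-/- H1, 4 higher in EZH2-/-/EZH1-/- H1, 8 and 4 against the average, 5 between EED-/- H1 and SUZ12-/- H1 and 2 between SUZ12-/- H1 and EZH2-/-/EZH1-/- H1, and in the time course 5 higher at day 8 and 11 at day 28. With median-ratio scaling, which moved the median log2 fold change of all genes in EED-/- H1 from 0.36 to 0.069 and the share of higher among all calls from 72.7% to 58.0%, 2 members were higher in EED-/- H1 (FGFRL1 and SPRY2), and in EED-/- H1 against SUZ12-/- H1 that share went from 42.2% to 30.0%. Fitting only the lines compared gave 0 higher and 1 lower in EZH2-/-/EZH1-/- H1 and 0 between it and SUZ12-/- H1, with fewer samples in the fit. A ratio of 2 in the time course gave 7 higher and 5 lower at day 8 and 13 higher and 4 lower at day 28, and the mean of WT H1 as reference gave 2 higher at day 8. The cause of the other moves was not tested.

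Leaving out 1 sample gave 3 to 4 members higher and 1 to 2 lower in EED-/- H1, 1 to 5 higher and 1 to 4 lower in EZH2-/-/EZH1-/- H1, 1 to 2 lower in SUZ12-/- H1, 2 to 4 higher against the average, 1 to 3 between EED-/- H1 and SUZ12-/- H1, 0 to 1 (SPRY1) between EED-/- H1 and EZH2-/-/EZH1-/- H1, and 1 to 4 between SUZ12-/- H1 and EZH2-/-/EZH1-/- H1. The samples behind these moves were either sample of WT H1 and of the 3 PRC2-null lines, and a line left with 1 sample is assumed to vary like the others. The members whose PRC2-null and other samples did not overlap, a count chosen after seeing the data, went from 3 to 5 lower without EZH2-/- H1 replicate 2. Depth is unknown, so values under about 1 TPM and differences between single time points carry no measure of error.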
